A study of Mus musculus with 12 samples.

Results

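The genes described here are Myot, which encodes myotilin, and 9 other genes whose proteins sit at the Z-disc of the cardiac sarcomere: Actn2, Ldb3, Myoz2, Tcap, Csrp3, Nebl, Synpo2l, Xirp1 and Xirp2. They are 10 of the 38293 gene identifiers in the count tables, of which 36345 could be paired with a symbol, and each of the 10 matched 1 identifier. Myot was chosen from its own values, because it was close to absent in the hearts labelled Zeb2 cTg IR, and the other 9 were set beside it as Z-disc partners, so its level in that comparison is a description and carries no test.

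RNA was sequenced from the left ventricle of 12 mice in 4 groups of 3, all young adults on a C57BL/6J background. They are taken as males, which the study's methods give with the transgenic models, although its general section on mice names both sexes. WT sham mice had sham surgery, and WT IR mice had ischaemia/reperfusion injury (IR), a temporary ligation of a coronary artery, with tissue taken 14 days later. Zeb2 WT IR and Zeb2 cTg IR mice were littermates that all had IR and the same 14 days of recovery; the label Zeb2 cTg stands for a ZEB2 transgene switched on by Cre under the Myh6 (αMHC) promoter, which acts in cardiomyocytes, so other cell types of the ventricle were not targeted. The sources differ on the region sampled, which is given as left ventricle, as infarct with border zone, or as the zone remote from the infarct.

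The Z-disc is the boundary between neighbouring sarcomeres, where actin filaments of opposite polarity are anchored by α-actinin. Many of its proteins bind one another, and several also take part in mechanical sensing and signalling, among them the calcineurin-binding myozenins and the LIM protein encoded by Csrp3. Variants in genes of this group cause inherited cardiomyopathies and, for myotilin, a myofibrillar myopathy of skeletal muscle.

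The 2 tables, one with the sham and IR libraries of WT mice and one with the Zeb2 WT IR and Zeb2 cTg IR libraries, held 20215781 to 36816818 counts per library, of which 60.6% to 73.5% lay on the mitochondrial genome. Zeb2 itself, the gene the transgene carries, was not higher in the hearts labelled Zeb2 cTg IR: it stood at 59.8 ± 6.43 CPM (counts per 1000000; SD, n = 3) in Zeb2 WT IR and 57 ± 1.59 CPM in the hearts labelled Zeb2 cTg IR, a log2 fold change of -0.069 with an adjusted p of 0.750 in edgeR's quasi-likelihood test. With a correction for the GC content of the transcripts, described below, the log2 fold change was 0.16 (adjusted p = 0.459). The Zeb2 counts thus did not bear that label out. The study itself reported more Zeb2 mRNA by qPCR and more ZEB2 protein by staining in its Zeb2 cTg hearts. Every direction given below for this comparison rests on the label as written. The hearts expressed the cardiomyocyte markers in every library, with 14 of 14 markers tested, while the 13 skeletal muscle markers summed to at most 5.25 CPM in any library.

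RefSeq (GRCm38.p6) gave 13 windows, each from 250 bases before to 50 after an annotated start, for 7 of the 10 genes; Myot, Tcap and Xirp1 had no entry. Both strands were searched for 4 motifs. The MEF2 motif, bound by a family of muscle transcription factors, was present in Myoz2, Synpo2l and Xirp2, which is 3 of 7 genes and 4 of 13 windows, whereas 3.19% of all 32851 windows held it. The E2-box CACCTG, the sequence that ZEB proteins are known to bind, was present in Csrp3, Nebl and Synpo2l, or 3 of 13 windows, beside 20.2% of all windows. The MCAT motif CATTCC was in 1 window, of Nebl, beside 14.7% of all windows, and TATAAA was in none of the 13, beside 13.6%. These are matches of letters, not measured binding. The MEF2 windows of Xirp2 and Myoz2, 1 of the 2 of Synpo2l and the Csrp3 window that holds 2 E2-boxes are printed, 5′ to 3′ on the gene's strand, with the motif in capitals. The MEF2 match begins at position -74 from the start in Xirp2 (chr2:67445752-67446051, plus strand), at -33 in Myoz2 (chr3:123034938-123035237, minus strand) and at -109 in Synpo2l (chr14:20668305-20668604, minus strand). The Csrp3 window (chr7:48843622-48843921, minus strand) belongs to an internal start.
Xirp2: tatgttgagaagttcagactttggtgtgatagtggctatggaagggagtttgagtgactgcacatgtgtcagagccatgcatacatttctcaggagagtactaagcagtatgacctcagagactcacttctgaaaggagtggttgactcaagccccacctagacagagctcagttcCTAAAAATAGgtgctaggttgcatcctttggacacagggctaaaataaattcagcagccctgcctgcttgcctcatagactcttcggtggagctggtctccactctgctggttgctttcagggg
Myoz2: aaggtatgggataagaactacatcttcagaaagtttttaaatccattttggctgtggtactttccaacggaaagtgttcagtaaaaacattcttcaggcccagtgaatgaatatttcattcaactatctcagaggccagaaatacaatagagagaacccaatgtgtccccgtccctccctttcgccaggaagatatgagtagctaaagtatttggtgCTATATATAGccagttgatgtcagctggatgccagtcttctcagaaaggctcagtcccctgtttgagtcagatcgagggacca
Synpo2l: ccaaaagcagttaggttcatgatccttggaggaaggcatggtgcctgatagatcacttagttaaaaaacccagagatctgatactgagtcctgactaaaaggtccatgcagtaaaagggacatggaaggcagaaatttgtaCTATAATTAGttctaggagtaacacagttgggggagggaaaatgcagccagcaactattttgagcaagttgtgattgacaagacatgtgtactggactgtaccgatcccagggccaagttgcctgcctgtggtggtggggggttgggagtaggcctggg
Csrp3: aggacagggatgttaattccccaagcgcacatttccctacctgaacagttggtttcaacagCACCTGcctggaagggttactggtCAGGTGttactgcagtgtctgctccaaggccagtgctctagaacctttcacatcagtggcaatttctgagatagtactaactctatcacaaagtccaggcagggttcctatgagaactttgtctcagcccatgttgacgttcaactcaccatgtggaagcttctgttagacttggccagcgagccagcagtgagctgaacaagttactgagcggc

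Myotilin, an actin- and α-actinin-binding protein with immunoglobulin domains, is encoded by Myot at chr18:44334074-44355724 on the plus strand (GRCm38, the mm10 assembly). In the injury comparison its level was 12.7, 12.4 and 9.07 CPM in the 3 WT sham hearts and 10.7, 10.7 and 12.6 CPM in the 3 WT IR hearts. These 2 groups overlapped. Their means were 11.4 ± 2.02 and 11.3 ± 1.07 CPM, a log2 fold change of -0.026 (SE 0.13) with an adjusted p of 0.911, so no change of Myot with injury was detected. In the other table Myot reached 18.7, 25.6 and 18.1 CPM in Zeb2 WT IR and 0.963, 0.267 and 0.505 CPM in the hearts labelled Zeb2 cTg IR. The groups lay far apart, with every heart labelled Zeb2 cTg IR below 1 CPM. Behind these values stood 510, 634 and 544 counts in Zeb2 WT IR and 23, 7 and 18 counts in the hearts labelled Zeb2 cTg IR, each above the limit of 3 counts that a count of 0 would allow. The group means were 20.8 ± 4.19 and 0.578 ± 0.354 CPM, 36.0-fold lower in the hearts labelled Zeb2 cTg IR, or -5.19 on the log2 scale, and leaving out any 1 of the 6 libraries gave -5.69 to -4.89.

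Myot could also be read against its partners inside each library, which needs no scaling between libraries. Per 10000 counts on the 9 partner genes there were 44.3, 43.7 and 34.3 Myot counts in WT sham and 36.2, 38.5 and 42.8 in WT IR. The corresponding numbers were 68.7, 96.5 and 66.5 in Zeb2 WT IR and 3.54, 0.995 and 1.90 in the hearts labelled Zeb2 cTg IR. The WT IR and Zeb2 WT IR hearts had the same injury and recovery time but stand in separate tables, and their difference in Myot was not tested. Levels of different genes were compared per kilobase of exon, and the order of neighbours was not tested. The exon length took in all annotated exons of a gene. For Nebl it was 15235 bases, beside 8079 for the longest transcript, so the order can change with that choice. In WT sham Actn2 (158 ± 16.5 CPM per kilobase) and Tcap (145 ± 26.2) were highest and within their spread of each other, as were Csrp3 (103 ± 7.76) and Myoz2 (97.2 ± 4.45) after them. Ldb3 (60.9 ± 1.56), Xirp2 (54.0 ± 2.51), Xirp1 (21.1 ± 1.76), Nebl (17.6 ± 1.07) and Synpo2l (6.98 ± 0.848) followed, and Myot was last of the 10 at 5.16 ± 0.915 CPM per kilobase. In Zeb2 WT IR Myot stood at 9.42 ± 1.90 and Synpo2l at 5.91 ± 0.978 CPM per kilobase, and in the hearts labelled Zeb2 cTg IR Myot was again last, at 0.262 ± 0.160.

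The genes on either side of Myot were given by their own values. Dcp2, which encodes an mRNA decapping enzyme and starts 24.8 kb beyond Myot, stood at 19.4 ± 1.53 CPM in Zeb2 WT IR and 15.8 ± 2.32 CPM in the hearts labelled Zeb2 cTg IR (log2 fold change -0.29, adjusted p = 0.245). Mcc, 69.3 kb away, had a log2 fold change of -0.29 (adjusted p = 0.254). Ythdc2, an RNA helicase gene 472 kb away, had -0.45 (adjusted p = 0.0790). On the other side lay Eif3j2, Dpysl3 and Stk32a, 856, 896 and 1015 kb away. Their log2 fold changes were -0.019, 0.10 and 0.91, none with an adjusted p under 0.05. Stk32a was at low level, with 0.222 ± 0.159 CPM in Zeb2 WT IR and 0.437 ± 0.240 CPM in the hearts labelled Zeb2 cTg IR. Within 5 Mb of Myot 27 other genes were tested, of which 1, Sh3rf2, was called, as lower, beside 3.64% of all genes tested. The median log2 fold change of the 27 was -0.28, beside 0.0059 over all genes tested. These values were not corrected for the GC content of the transcripts, with which fold changes in this comparison moved, as described below. The part of GC content in that median was not tested.

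**Figure D1:**
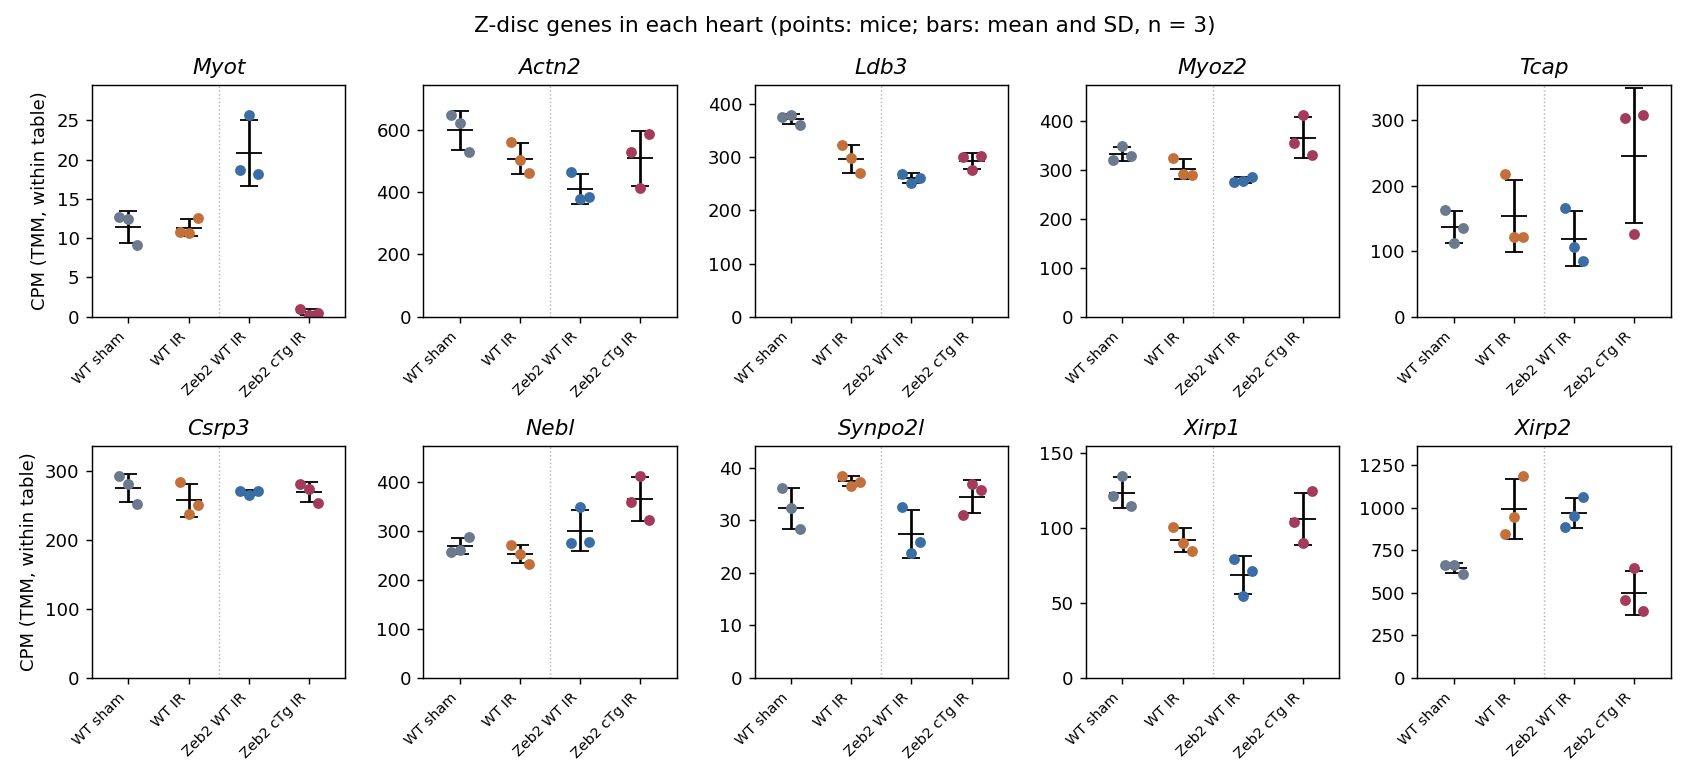
Expression of the 10 Z-disc genes in each heart, in CPM scaled within each count table (y axis, from 0), by group (x axis). Points are mice, and bars are the mean and SD of 3; the dotted line divides the separately scaled tables. Myot lies between 9.07 and 25.6 CPM in 9 hearts and between 0.267 and 0.963 CPM in the 3 labelled Zeb2 cTg IR, and Xirp2 is higher in WT IR than in WT sham and lower in the hearts labelled Zeb2 cTg IR than in Zeb2 WT IR.

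Xirp2, at chr2:67446002-67526614 on the plus strand, is a gene for an actin-binding Xin-repeat protein of the intercalated disc and Z-disc. It was 665, 663 and 612 CPM in WT sham and 845, 946 and 1187 CPM in WT IR. All WT IR hearts were above all WT sham hearts. Xirp2 rose from 647 ± 30.1 to 993 ± 176 CPM, a log2 fold change of 0.62 (SE 0.14, adjusted p = 0.0149). In the other table it was 889, 952 and 1061 CPM in Zeb2 WT IR and 458, 645 and 391 CPM in the hearts labelled Zeb2 cTg IR. These groups did not overlap either, in the opposite direction. Xirp2 fell from 967 ± 87.1 to 498 ± 131 CPM, a log2 fold change of -0.96 (SE 0.19, adjusted p = 0.0283). With 3 hearts a group these calls were close to the threshold: the injury call was lost without WT sham replicate 1, 2 or 3 or WT IR replicate 2 (adjusted p = 0.0537, 0.0824, 0.0648 and 0.0530). The genotype call was lost without Zeb2 WT IR replicate 2 or 3 or the library labelled Zeb2 cTg IR replicate 1 or 3 (adjusted p = 0.0602, 0.132, 0.107 and 0.104).

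Xirp1, the paralogue of Xirp2 and the founding Xin-repeat gene, lies at chr9:120013755-120023598 on the minus strand and moved the other way. Its level was 121, 134 and 114 CPM in WT sham and 101, 89.9 and 84.6 CPM in WT IR, with no overlap. It fell from 123 ± 10.3 to 91.7 ± 8.14 CPM (log2 fold change -0.43, SE 0.10, adjusted p = 0.0160), and the call was lost without WT sham replicate 1 or 2 or WT IR replicate 2 (adjusted p = 0.0518, 0.0932 and 0.0756). In the other table Xirp1 was 79.2, 54.6 and 71.1 CPM in Zeb2 WT IR and 103, 89.4 and 124 CPM in the hearts labelled Zeb2 cTg IR. The groups did not overlap, but the log2 fold change of 0.63 (SE 0.17) had an adjusted p of 0.0733 and did not pass. It passed without the library labelled Zeb2 cTg IR replicate 2 (0.73, adjusted p = 0.0180). In that fit 18.2% of all genes tested were called, beside 3.64% with all 6 libraries. Cx3cr1, a macrophage gene that overlaps Xirp1 on the same strand, had at most 374 counts in any library, and reads shared between the 2 genes cannot be told apart.

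Inside single libraries the number of Xirp2 counts per Xirp1 count was 5.50, 4.93 and 5.36 in WT sham and 8.40, 10.5 and 14.0 in WT IR. It was 11.2, 17.4 and 14.9 in Zeb2 WT IR and 4.43, 7.22 and 3.15 in the hearts labelled Zeb2 cTg IR. The ratio separated the groups without overlap in both tables, higher after IR in WT mice and lower in the hearts labelled Zeb2 cTg IR. It was computed with the values of both genes known and was not tested. Nor was it corrected for the GC content of the transcripts, 42.2% for Xirp2 and 57% for Xirp1. With such a correction, described below, their log2 fold changes in the second table were -0.77 and 0.27.

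For the α-actinin scaffold and its direct partners, 1 call was made, of Ldb3 with injury. Actn2, which encodes the α-actinin of cardiac muscle that crosslinks actin at the Z-disc, was 599 ± 62.5 CPM in WT sham and 508 ± 49.9 CPM in WT IR (log2 fold change -0.24, adjusted p = 0.176). It was 409.7 ± 48.4 CPM in Zeb2 WT IR and 509 ± 88.3 CPM in the hearts labelled Zeb2 cTg IR (log2 fold change 0.31, adjusted p = 0.256). The groups overlapped in both tables. Without WT IR replicate 1 the injury value of Actn2 was -0.32 and passed (adjusted p = 0.0348). In that fit 36.0% of all genes tested were called, beside 20.8% in the reported fit.

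Ldb3, which encodes the PDZ-LIM protein cypher/ZASP that ties α-actinin to signalling kinases, was 376, 379 and 361 CPM in WT sham and 324, 298 and 271 CPM in WT IR. Every WT IR heart was below every WT sham heart, and Ldb3 fell by 0.32 on the log2 scale (SE 0.10, adjusted p = 0.0411). The call was lost in 5 of the 6 leave-one-out fits, all except the one without WT IR replicate 1, where the log2 fold change was the furthest from 0; the adjusted p in the others was 0.0808 to 0.159. In the other table Ldb3 was 269, 252 and 261 CPM in Zeb2 WT IR and 299.9, 276 and 302 CPM in the hearts labelled Zeb2 cTg IR, again without overlap, but the log2 fold change of 0.17 did not pass (adjusted p = 0.375).

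Myoz2, the cardiac myozenin (calsarcin) that binds α-actinin and calcineurin, was 333 ± 15.2 CPM in WT sham and 302 ± 20.3 CPM in WT IR (log2 fold change -0.14, adjusted p = 0.303). In Zeb2 WT IR its 3 hearts lay at 275, 277 and 287 CPM, and those labelled Zeb2 cTg IR at 356, 412 and 330.5 CPM. These groups did not overlap, and the log2 fold change of 0.39 (SE 0.12) had an adjusted p of 0.104.

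Tcap encodes telethonin, which caps the ends of titin at the Z-disc, and Csrp3 encodes muscle LIM protein, which binds it. Tcap, at chr11:98383811-98384953 on the plus strand, was 162, 113 and 136 CPM in WT sham and 218, 122 and 121 CPM in WT IR. In Zeb2 WT IR it was 166, 107 and 84.8 CPM, and in the hearts labelled Zeb2 cTg IR it was 303, 127 and 308 CPM. One heart of that last group stayed within the range of Zeb2 WT IR while the other two were above it. The means were 119 ± 42.0 and 246 ± 103 CPM, a log2 fold change of 1.04 (SE 0.34) that did not pass (adjusted p = 0.111). Without the library labelled Zeb2 cTg IR replicate 2 the log2 fold change was 1.35 (adjusted p = 0.0078), in a fit that called 18.2% of all genes tested. Csrp3 was the steadiest of the 10 in the second table, at 271, 264 and 271 CPM in Zeb2 WT IR and 280.4, 274 and 253 CPM in the hearts labelled Zeb2 cTg IR. Its log2 fold change there was 0.0013 (SE 0.11), and in the injury comparison it was -0.10 (adjusted p = 0.516).

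The remaining partners are a thin filament protein and a synaptopodin-family protein. Nebl, for nebulette, the short cardiac relative of nebulin, was 268 ± 16.3 and 252 ± 19.1 CPM in WT sham and WT IR (log2 fold change -0.089, adjusted p = 0.535). It was 301 ± 42.3 CPM in Zeb2 WT IR and 364 ± 45.1 CPM in the hearts labelled Zeb2 cTg IR (log2 fold change 0.28, adjusted p = 0.274). Synpo2l, whose protein binds α-actinin and actin, was 36.2, 32.4 and 28.3 CPM in WT sham and 38.5, 36.5 and 37.4 CPM in WT IR. The groups just missed each other, with a log2 fold change of 0.21 and an adjusted p of 0.134. In the other table Synpo2l was 27.4 ± 4.53 and 34.5 ± 3.12 CPM (log2 fold change 0.34, adjusted p = 0.201).

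Of the 10 genes, 3 were called with injury at an adjusted p under 0.05, Xirp2 as higher and Ldb3 and Xirp1 as lower. Over the 13756 genes tested there, 20.8% were called, 11.0% as higher and 9.74% as lower. WT sham and WT IR did not overlap for 4 of the 10 genes, and for 39.8% of all genes tested. The median log2 fold change of the 10 was -0.094, beside 0.0064 over all genes. In the other comparison 1 of the 9 partners was called, Xirp2 as lower, and none as higher. There 3.64% of the 13018 genes tested were called, 2.14% as higher and 1.51% as lower. The groups did not overlap for 4 of the 9 partners, Ldb3, Myoz2, Xirp1 and Xirp2, beside 26.2% of all genes tested. The 9 partners had a median log2 fold change of 0.31, with 8 above 0 and 1 below, beside 0.0059 over all genes. Of the 13018 genes tested, 6592 were above 0. Csrp3, among the 8, stood at 0.0013 and changed sign under several alternative settings. With the GC correction described below, the values of Tcap, Xirp1, Actn2 and Synpo2l became smaller and those of Myoz2 and Nebl larger.

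**Figure D2:**
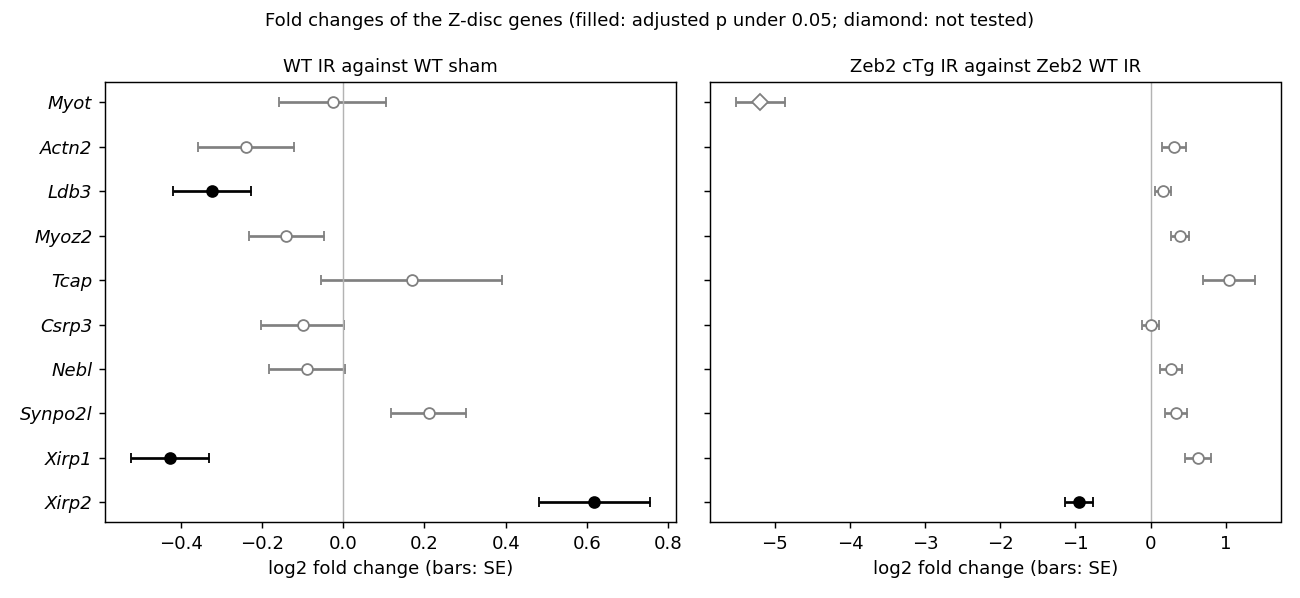
Log2 fold changes (x axis) of the 10 Z-disc genes (y axis), with bars for the SE of the fit. WT IR against WT sham is on the left, and the hearts labelled Zeb2 cTg IR against Zeb2 WT IR are on the right. Filled points have an adjusted p under 0.05. The diamond is Myot, whose value on the right carries no test. The x axes differ. Xirp2 stands at 0.62 on the left and at -0.96 on the right, while Myot is at -0.026 and -5.19.

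The tissue of the groups also differed. In the injury comparison 7 of 8 fibroblast markers and 7 of 8 macrophage markers were called as higher, and the summed fibroblast markers were 495 to 894 CPM in WT sham and 1813 to 4533 CPM in WT IR. The 14 cardiomyocyte markers summed to 30313 to 32986 CPM in WT sham and 21959 to 29115 CPM in WT IR, with 4 called as lower. In bulk tissue fewer cardiomyocytes and less RNA per cardiomyocyte cannot be told apart. When libraries were scaled to these cardiomyocyte markers, the median of all genes moved to 0.38, and 3 of the 10 members were called, all as higher: Xirp2 at 1.02 (adjusted p = 0.00478), Synpo2l at 0.59 (adjusted p = 0.0110) and Tcap at 0.50 (adjusted p = 0.0410). On that scale 33.2% of all genes tested were called, 32.0% as higher and 1.22% as lower. Ldb3 stood at 0.041 and Xirp1 at -0.061, neither called, both below the shifted median. Actn2 (0.13), Myoz2 (0.23), Csrp3 (0.27), Nebl (0.27) and Myot (0.37) also went from below 0 to above it, none called. The direction of these 5 genes and of Ldb3 thus depended on the scaling, and that of Xirp2 did not.

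In the other comparison the summed fibroblast markers were 874 to 1969 CPM in Zeb2 WT IR and 509 to 623 CPM in the hearts labelled Zeb2 cTg IR, with 3 of 8 called as lower. The cardiomyocyte markers summed to 24578 to 28012 CPM and 25493 to 32905 CPM, which overlap, and 2 of 14 were called, as higher. Skeletal muscle markers summed to 1.38 to 1.98 CPM in Zeb2 WT IR and 2.06 to 4.43 CPM in the hearts labelled Zeb2 cTg IR, where Myot was close to absent, with Myog and Pax7 at 0 in all 6 libraries. Of 6 atrial markers 3 could be tested. All 3 had a log2 fold change above 0, and 1, Nppa, was called as higher, beside 2.14% of all genes. Nppa, which injured ventricle also expresses, was 26.7 to 62.2 CPM and 104 to 279 CPM. Myl4 was 0.403 to 0.466 and 0.648 to 1.88 CPM (adjusted p = 0.0606), and Stard10 had an adjusted p of 0.255. The untested Myl7, Sln and Bmp10 reached 0.0404, 0 and 0 CPM in Zeb2 WT IR and 1.09, 0.196 and 0.229 CPM in the hearts labelled Zeb2 cTg IR. Scaled to the cardiomyocyte markers, the median of all genes was -0.15, Xirp2 stood at -1.09 (adjusted p = 0.0267) and Myot at -5.38. The part of these tissue differences in the values of the other partners was not tested.

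Fold changes also moved with the GC content of the transcripts. Over 12892 genes Spearman's rho between GC content and the log2 fold change was 0.55 for the hearts labelled Zeb2 cTg IR against Zeb2 WT IR, and over 13609 genes it was -0.29 for WT IR against WT sham; genes within a library are not independent, and no p is given. The members span this range. Tcap (61.3% GC), Xirp1 (57%), Synpo2l (56.5%) and Actn2 (55.1%) are GC-rich, and Xirp2 (42.2%), Nebl (40.1%) and Myoz2 (39.7%) are GC-poor. With each library corrected for GC content, the log2 fold changes of Tcap and Xirp1 were 0.44 and 0.27, and those of Actn2 and Synpo2l were 0.030 and 0.029, none called. Those of the GC-poor Myoz2 and Nebl were 0.62 (adjusted p = 0.00713) and 0.51 (adjusted p = 0.0121), both called as higher. Xirp2 kept its call at -0.77 (adjusted p = 0.0109), and Myot (45.8% GC) stood at -5.02. In the injury comparison with the same correction Ldb3 (-0.40, adjusted p = 0.0290), Xirp1 (-0.35, adjusted p = 0.0357) and Xirp2 (0.45, adjusted p = 0.0470) were called in the same directions as before.

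**Figure D3:**
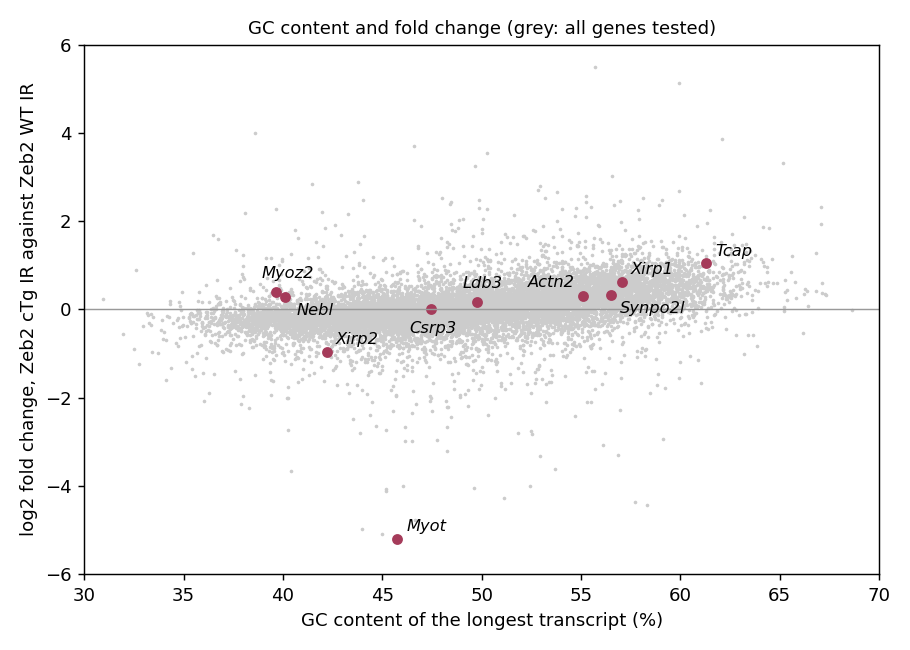
Log2 fold change of the hearts labelled Zeb2 cTg IR against Zeb2 WT IR (y axis) by GC content of the longest transcript in percent (x axis), for all genes tested (grey) and the 10 Z-disc genes (red). The grey cloud rises from left to right (Spearman's rho 0.55). Myot, at 45.8% GC, lies at -5.19, well below genes of like GC content; 2 genes lie outside the axes and 126 had no GC value.

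A wider list of 56 other Z-disc genes, from relatives of the members to chaperones and ligases of the Z-disc, held 52 that could be tested. With injury 21 of the 52 were called, 7 as higher and 14 as lower, beside the share of 20.8% over all genes, and their median log2 fold change was -0.19. The split depended on the scaling: with libraries scaled to the cardiomyocyte markers 17 were called as higher and 4 as lower, beside 32.0% and 1.22% of all genes. In the other comparison 9 of the 52 were called, 8 as higher and 1 as lower, beside 3.64% of all genes, with a median of 0.13.

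The nearest relatives of myotilin are palladin and myopalladin, which share its immunoglobulin domains. Palld fell from 84.4 ± 7.54 to 59.6 ± 9.66 CPM with injury (log2 fold change -0.50, adjusted p = 0.0209), and Mypn fell from 77.0 ± 3.69 to 61.8 ± 4.41 CPM (log2 fold change -0.32, adjusted p = 0.0250); scaled to the cardiomyocyte markers they stood at -0.15 and 0.048 and neither was called. In the hearts labelled Zeb2 cTg IR neither was called: Palld was 41.8 ± 7.62 CPM in Zeb2 WT IR and 49.9 ± 1.39 CPM there (log2 fold change 0.26, adjusted p = 0.307), and Mypn was 41.2 ± 3.01 and 39.1 ± 6.12 CPM (log2 fold change -0.074, adjusted p = 0.770).

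Among the α-actinins, the non-muscle genes Actn1 and Actn4 rose with injury, by 0.86 (adjusted p = 0.00688) and 0.31 (adjusted p = 0.0276) on the log2 scale. Actn4 was also higher in the hearts labelled Zeb2 cTg IR, at 29.0 ± 5.71 against 15.9 ± 2.43 CPM (log2 fold change 0.87, adjusted p = 0.0322), whereas Actn1 was not called there (-0.28, adjusted p = 0.341). Actn3, the fast skeletal muscle α-actinin, had 0 to 3 counts in every library, and the skeletal myozenins Myoz1 and Myoz3 had at most 7 and 1, so they could not be tested. Among the PDZ-LIM genes Pdlim3 rose with injury (1.41, adjusted p = 0.0091) and Pdlim4 fell (-0.54, adjusted p = 0.0492), while Pdlim1, Pdlim5 and Pdlim7 were not called. None of the 5 was called in the other table, where Pdlim7 had the largest log2 fold change of the 5, at 1.39 (adjusted p = 0.0564). The LIM genes Csrp1 and Csrp2, relatives of Csrp3, rose with injury by 0.50 (adjusted p = 0.0131) and 1.37 (adjusted p = 0.0139). Neither was called in the hearts labelled Zeb2 cTg IR, at -0.20 and -0.036. The synaptopodin gene Synpo2 fell with injury (-0.30, adjusted p = 0.0424) and Synpo was not called; neither was called in the other table.

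Neb, which encodes nebulin, the long thin filament ruler of skeletal muscle that is present at low level in the heart, had the lowest log2 fold change of the list with injury and the highest in the other comparison. It was 16.7 to 19.7 CPM in WT sham and 6.21 to 11.3 CPM in WT IR, a log2 fold change of -1.08 (SE 0.18, adjusted p = 0.0063). It was 9.16 to 10.8 CPM in Zeb2 WT IR and 21.2 to 61.7 CPM in the hearts labelled Zeb2 cTg IR, a log2 fold change of 1.88 (SE 0.36, adjusted p = 0.0268). Neither pair of groups overlapped. The injury call held in 6 of 6 leave-one-out fits and the other in 3 of 6; scaled to the cardiomyocyte markers the injury value was -0.68 and not called (adjusted p = 0.0573). The other nebulin relatives Nrap and Lasp1 were not called in either table in the reported fit. Scaled to the cardiomyocyte markers both were called as higher with injury, at 0.37 and 0.54 (adjusted p = 0.0276 and 0.0360), beside 32.0% of all genes.

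Ankrd1, an ankyrin-repeat gene that binds titin and is induced by cardiac stress, was higher in both comparisons. It rose from 239 ± 56.9 to 613 ± 125 CPM with injury (log2 fold change 1.36, adjusted p = 0.00407) and was 439 ± 80.0 CPM in Zeb2 WT IR and 1058 ± 474 CPM in the hearts labelled Zeb2 cTg IR (log2 fold change 1.27, adjusted p = 0.0482). The second call held in 2 of 6 leave-one-out fits. Fhl1, a four-and-a-half LIM gene linked to hypertrophic signalling, rose with injury from 37.1 ± 1.79 to 56.7 ± 14.0 CPM (log2 fold change 0.61, adjusted p = 0.0237) and was the 1 gene called as lower in the other table, from 50.04 ± 5.94 to 31.7 ± 2.35 CPM (log2 fold change -0.66, adjusted p = 0.0283).

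In the chaperone and filamin group 3 of 8 genes were called as higher in the hearts labelled Zeb2 cTg IR, beside 2.14% of all genes. All 8 had a log2 fold change above 0 there, as did 6592 of the 13018 genes tested. Flnc, for filamin C, was 101 ± 26.6 CPM in Zeb2 WT IR and 198 ± 41.6 CPM there (log2 fold change 0.97, adjusted p = 0.0438). Cryab, for the small heat shock protein αB-crystallin that protects desmin and filamin, went from 189 ± 15.5 to 328 ± 45.7 CPM (log2 fold change 0.80, adjusted p = 0.0193). Hspb1, another small heat shock protein, went from 7.24 ± 2.18 to 22.6 ± 7.08 CPM (log2 fold change 1.64, adjusted p = 0.0176). With injury 3 genes of this group were called, all as lower, beside 9.74% of all genes. They were Cryab (-0.37, adjusted p = 0.0341), Bag3, a co-chaperone of filamin turnover (-0.43, adjusted p = 0.0136), and Plec, for plectin (-0.75, adjusted p = 0.00611). Scaled to the cardiomyocyte markers Cryab stood at -0.0047 and Bag3 at -0.066, neither called. The group is GC-rich, with a median of 56.3%, and with the GC correction Flnc, Cryab and Hspb1 stood at 0.55, 0.56 and 1.07 in the hearts labelled Zeb2 cTg IR and were called. With marker scaling Hspb1 kept its call there (1.45, adjusted p = 0.00457), and Flnc (0.80, adjusted p = 0.0574) and Cryab (0.62, adjusted p = 0.0700) did not.

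The other calls were spread over single genes. Fbxl22, an F-box gene of a ubiquitin ligase at the Z-disc, fell with injury from 19.3 ± 1.75 to 11.4 ± 1.38 CPM (log2 fold change -0.75, adjusted p = 0.00412) and was higher in the hearts labelled Zeb2 cTg IR, at 15.4 ± 0.986 against 9.82 ± 1.12 CPM (log2 fold change 0.65, adjusted p = 0.0351). Capzb, which encodes a subunit of the actin-capping protein CapZ, was 30.9 ± 0.352 CPM in Zeb2 WT IR and 43.8 ± 1.60 CPM in the hearts labelled Zeb2 cTg IR (log2 fold change 0.50, adjusted p = 0.0359). Obsl1 fell with injury by 0.81 on the log2 scale (adjusted p = 0.00733), but its transcript is GC-rich (62.5%), and with the GC correction it stood at -0.35 and was not called (adjusted p = 0.0591), nor was Pdlim4 with that correction (adjusted p = 0.0567). Lmcd1, Itgb1bp2 and Fblim1 also fell with injury, by 0.45, 0.42 and 0.28 (adjusted p = 0.0304, 0.0184 and 0.0462). Scaled to the cardiomyocyte markers these 3 stood at -0.077, -0.059 and 0.088 (adjusted p = 0.703, 0.688 and 0.529), and Pdlim4 and Synpo2, named above as lower with injury, at -0.17 and 0.060 (adjusted p = 0.542 and 0.685), none called. With the replicate block Lmcd1, Fblim1, Pdlim4 and Synpo2 also lost their injury calls (adjusted p = 0.0531, 0.0524, 0.0612 and 0.0689), and Itgb1bp2 did not. With marker scaling the calls of Actn4, Fhl1, Ankrd1, Fbxl22 and Capzb in the hearts labelled Zeb2 cTg IR were lost (adjusted p = 0.0802, 0.0519, 0.0631, 0.172 and 0.317). Each call in the hearts labelled Zeb2 cTg IR held in 1 to 3 of the 6 leave-one-out fits.

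**Figure D4:**
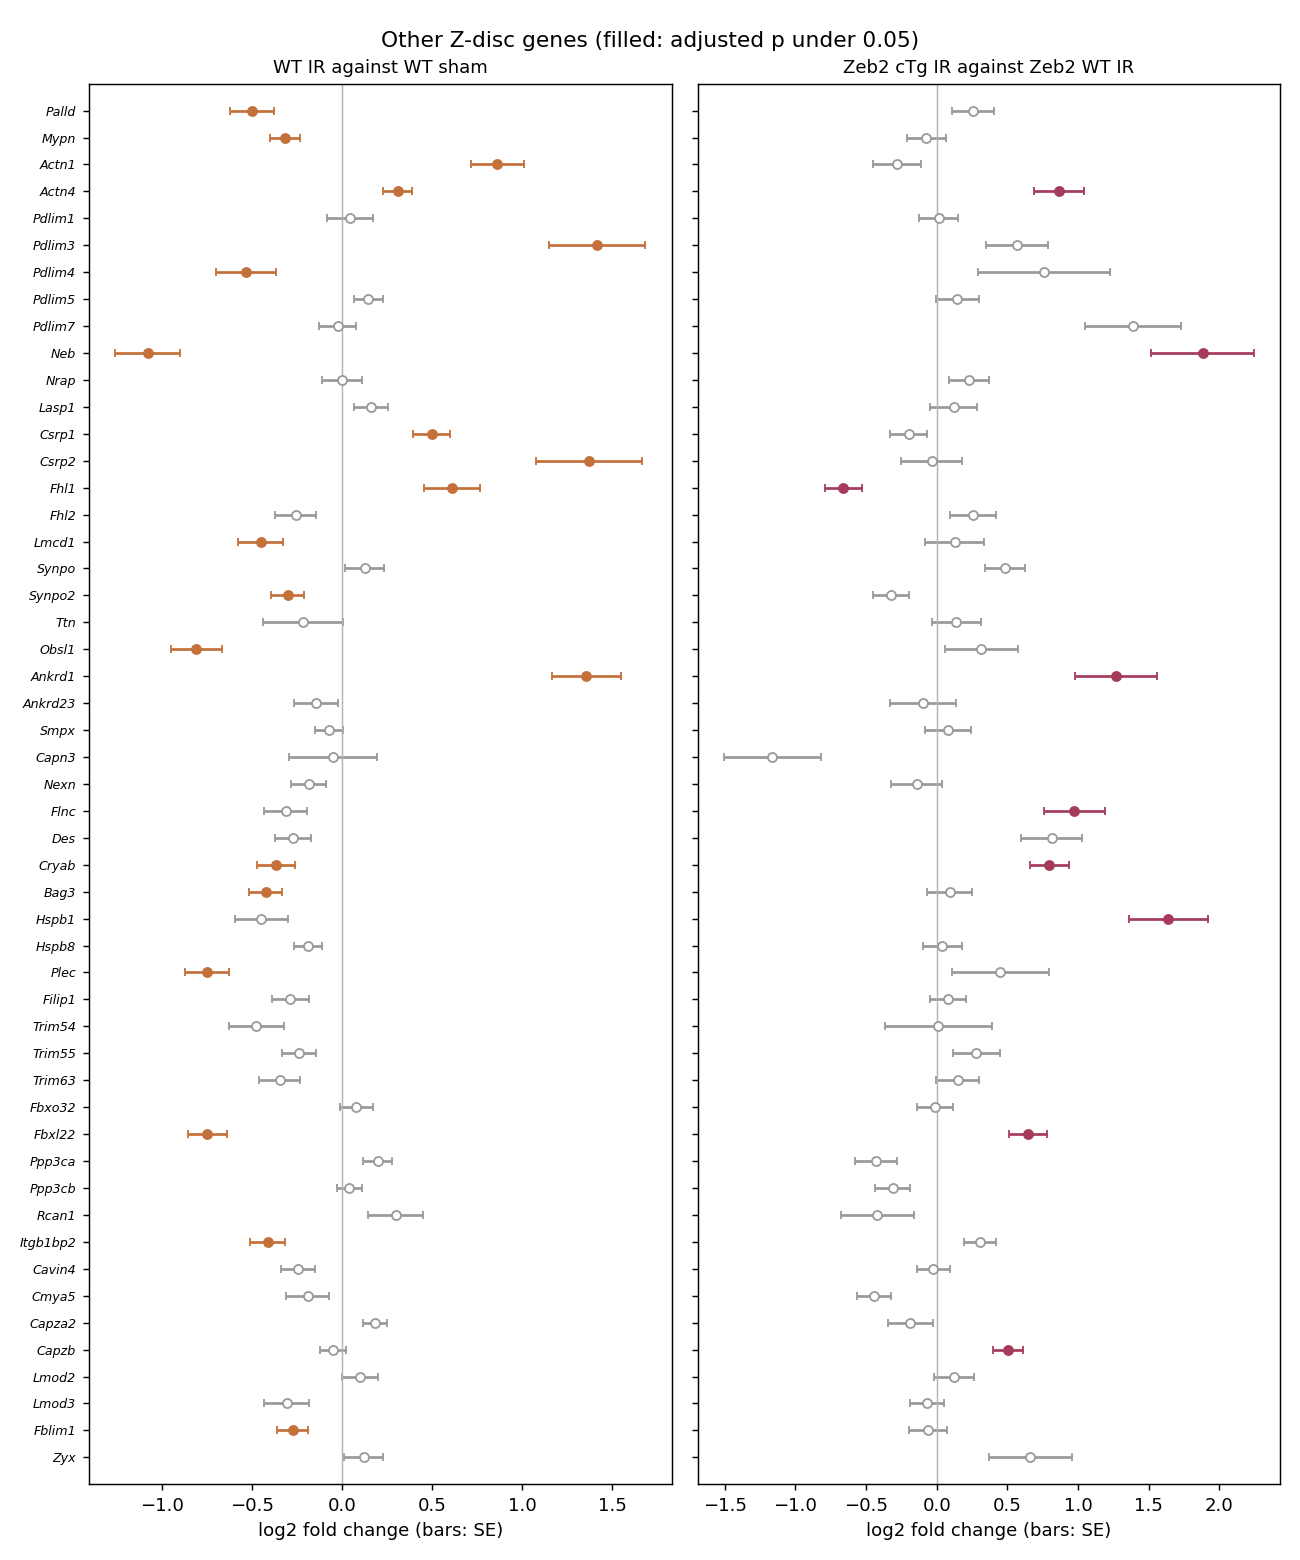
Log2 fold changes (x axis; bars are the SE of the fit) of 51 of the 52 testable genes of the wider Z-disc list (y axis), for WT IR against WT sham on the left and the hearts labelled Zeb2 cTg IR against Zeb2 WT IR on the right; filled points have an adjusted p under 0.05, and the x axes differ. On the left 7 filled points lie above 0 and 13 below, and on the right 8 lie above 0 and Fhl1 below.

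The genes whose pattern over the 12 libraries was most like that of Myot were found by the root mean square difference of log2 CPM, centred in each table, over 12005 other named genes. They were D7Ertd443e (0.376), Egf (0.626), Tmem150c (0.655), Epn3 (0.659) and Clcn1 (0.807), beside a median of 1.87 over all genes. Egf encodes the precursor of epidermal growth factor and Clcn1 a muscle chloride channel. Egf was 4.58 to 7.28 CPM in Zeb2 WT IR and 0.267 to 0.419 CPM in the hearts labelled Zeb2 cTg IR, and Clcn1 was 2.13 to 4.25 and 0.0561 to 0.461 CPM. D7Ertd443e was 1.58 to 2.23 CPM in Zeb2 WT IR and at 0 to 0.0838 CPM in the hearts labelled Zeb2 cTg IR, where it lies under 3 counts. The lowest values of Tmem150c, Epn3 and Clcn1 in those hearts (0.0381, 0.0763 and 0.0561 CPM) also lay under 3 counts. None of the 9 partners came near this likeness: Xirp2 was closest at 1.56, Csrp3 followed at 1.85, and the others lay between 1.91 and 2.20. The measure uses the same values that singled Myot out and is given as a description.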

How the data were processed

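Left ventricular RNA-seq of 12 mice was used as raw counts per gene. According to the study's methods and the labels, the authors aligned strand-specific single-end reads with STAR (2.4.2a) to mm10 and counted them on Gencode M4 genes with HTSeq (0.6.1); the authors deposited whole-number counts in 2 tables without normalization, and the strand setting of the counter was not given in the sources used here. The members and gene lists were chosen with earlier results of these data known.

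Each table was fitted on its own with edgeR 4.0.16 (TMM scaling, filterByExpr with a minimum of 10 counts and a total of 15, quasi-likelihood F-test, Benjamini-Hochberg adjustment over all genes tested, called at an adjusted p under 0.05). CPM values are counts per 1000000 of the TMM-scaled library size, which includes mitochondrial counts; 1 CPM was 17.2 to 37.8 counts. Fold changes are fitted values; log2 CPM for the likeness to Myot used a prior count of 2. Errors are SDs over 3 mice. Members were matched by symbol, and the text names all 10, the wider list's called genes (1 of them is not reported here) and named relatives, 3 tested neighbours of Myot each side and the 5 genes most like it. GC content came from the longest transcript of each gene. Alternatives were RLE, upper-quartile and cardiomyocyte-marker scaling, removal of mitochondrial genes, 2 other filters, DESeq2 1.42.0, limma-voom (limma 3.58.1), a GC correction (loess, span 0.5), a replicate block and leaving out each library. The scripts were tested on simulated data. The smallest p of an exact permutation test of 3 against 3 is above the threshold, so none was used.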

Additional observations from a re-analysis of the deposited data

How the results depend on the processing

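Scaling to the cardiomyocyte markers turned the injury value of Ldb3 to 0.041, Mypn to 0.048, Synpo2 to 0.060, Fblim1 to 0.088 and Nrap to 0.37 on the log2 scale. These are below or near the shifted median of 0.38, and among them only Nrap was called (adjusted p = 0.0276). Among uncalled members it took Actn2 to 0.13, Myoz2 to 0.23, Csrp3 to 0.27, Nebl to 0.27 and Myot to 0.37, from below 0. With it 3 of the 52 genes of the wider list were called in the hearts labelled Zeb2 cTg IR, Neb and Hspb1 of the 9 in the reported fit and Pdlim7 (1.19, adjusted p = 0.0400), beside 3.42% of all genes. In that comparison 3 partners were called with no filter, DESeq2, the GC correction, the replicate block, and the block with the GC correction, and 2 at an adjusted p under 0.1, beside 1 in the reported fit; all genes called came to 7.02%, 8.41%, 6.44%, 13.9%, 5.63% and 10.1% in that order, beside 3.64%. The wider list gave 16 calls with no filter, 14 with the GC correction, 16 with the replicate block and 14 at an adjusted p under 0.1, beside 9 and the same shares of all genes. With one library left out, members called ranged from 0 to 4 for injury and 0 to 3 for the other comparison, and the wider list from 4 to 36 and 0 to 16, while the share of all genes called ranged from 3.05% to 36.0% and from 0.737% to 18.2%. The cause of these shifts was not tested.

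Whether the replicate numbers pair the mice could not be settled from the counts. Deviations of same-numbered libraries correlated at -0.034, 0.012 and -0.015 in the injury table and 0.13, 0.26 and -0.042 in the other. There the libraries of replicate 2 correlated best with each other. Not every library correlated best with its own number (the library labelled Zeb2 cTg IR replicate 3 with Zeb2 WT IR replicate 1, 0.33). With the replicate block Xirp1 (0.63, adjusted p = 0.0118) and Tcap (0.99, adjusted p = 0.0393) passed in the hearts labelled Zeb2 cTg IR, and Ldb3 did not in the injury comparison (-0.33, adjusted p = 0.0599).

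Of the members' log2 fold changes under the alternatives, 141 of 170 injury values and 129 of 153 of the partners' values in the other comparison kept both their direction and their side of the threshold; 10 and 8 changed sign, none of them called after the change. With 3 mice a group, small differences were not detectable at this depth and spread, and a p above the threshold does not show that a partner was unchanged. The region sampled is given differently by the sources.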
